A study of Mus musculus with 6 samples.

Results

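The genes described here are 10 genes of the translation machinery and its associated transcripts, chosen by name from the 41710 genes counted in islet RNA-seq libraries. They are *Eef1a1*, *Eef1b2*, *Eef1g* and *Eef2* of the elongation step, *Pabpc1*, *Eif4a2* and *Eif1* of initiation, and *Tpt1*, *Naca* and *Rack1*, whose mRNAs are counted with theirs to the TOP class. All 10 were found in the files and all 10 passed the filter on low counts. Islets came from 3 *Trpm7R/R* mice, in which a homozygous point mutation in every cell of the body inactivates the kinase of the TRPM7 channel, and from 3 WT control littermates on the C57BL/6 background. All mice of both genotypes had received a diet with 45% of its energy from fat for 16 weeks, from 8 weeks of age. The authors describe recovery of isolated islets in culture medium before functional assays. They do not say whether the sequenced islets were cultured. A point mutation leaves the transcript in place, so read counts of *Trpm7* cannot check the genotype labels. Each mouse gave 1 library, numbered 4, 6 and 8 in *Trpm7R/R* and 1, 2 and 3 in WT.

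Elongation factors carry the ribosome along an mRNA, with eEF1A delivering each aminoacyl-tRNA, the eEF1B subunits recharging eEF1A with GTP, and eEF2 moving the ribosome to the next codon. The mRNAs of most of these factors, like those of the ribosomal proteins, begin with a C and a run of pyrimidines at the cap, the 5′ terminal oligopyrimidine or TOP. The protein LARP1 binds this start and represses it when the kinase complex mTORC1 is inactive, so that the mRNAs are held as a reserve of untranslated RNA in starved cells. The β cell depends on this machinery to translate proinsulin after a meal.

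RefSeq start sites of the GRCm38.p6 assembly were known for 8 of the 10 genes, with no entry used for *Pabpc1* and *Eef1g*. The motif searched was a C followed by at least 4 more C or T on the transcribed strand, beginning within 5 bases either side of the annotated start. It was present in 3 of the 8 genes, or 37.5%, against 29 of 63 cytosolic ribosomal protein genes, or 46.0%, and 5718 of all 27025 genes of the table, or 21.2%. The 3 windows with a run are shown, and those of *Tpt1* and *Eef2* for contrast. In *Rack1* and *Eef1a1* the run spans the annotated start, which falls on a C in *Rack1* and on a T in *Eef1a1*. In *Naca* it ends just before that start, so the annotated mRNA begins with an A and not with the run. Each window holds 30 bases, 15 of them before the annotated start, with the run in capitals.
Rack1: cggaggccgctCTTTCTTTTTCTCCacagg
Eef1a1: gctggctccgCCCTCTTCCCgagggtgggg
Naca: gcaactcgttCTCTTaaagaggaaacccgg
Tpt1: gtcaccgctgacgacagttccgggggagcc
Eef2: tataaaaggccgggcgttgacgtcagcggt
Counted from the first C inside the 5-base limit, the capitals mark 14 bases in *Rack1*, 10 in *Eef1a1* and 5 in *Naca*. In *Rack1* and *Naca* 2 more pyrimidines stand just before the capitals, which makes the whole stretch 16 bases in *Rack1* and 7 in *Naca*. A window without capitals says only that these letters were not found this close to the annotated start.

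The libraries held between 17213285 and 20307909 mapped reads in *Trpm7R/R* and between 18226053 and 18825699 in WT, and most reads in genes lay in introns. The background of a library was therefore set to the median intron read density of 5181 autosomal genes with at least 50000 bases of intron. Exon-exon reads, which span a junction and come from spliced RNA, are rare in these libraries. Outside the mitochondrial chromosome and 11 predicted genes with at least 100 times the background density in every library, they made up 0.0514%, 0.0348% and 0.0511% of mapped reads in *Trpm7R/R* and 0.158%, 0.194% and 0.0917% in WT. Introns of Y-linked genes were almost without reads in *Trpm7R/R* replicates 6 and 8, at 0.0160 and 0.0140 times the autosomal density, while the other 4 libraries lay between 0.359 and 0.613. Introns of X-linked genes stood at 1.52 and 1.50 times the autosomal density in *Trpm7R/R* replicates 6 and 8. They stood at 0.597 in replicate 4 and between 0.742 and 0.824 in WT. The labels give no sex, but by these reads replicates 6 and 8 look female and the other 4 libraries male. Replicate 4 is the only *Trpm7R/R* library with more than a trace of Y-linked reads, so sex and genotype can be told apart only in part. Markers of islet endocrine cells (8 of 8 genes found) summed to between 349 and 750 exon reads per 1000000 mapped reads in *Trpm7R/R* and between 1170 and 2794 in WT. Those of acinar, duct, endothelial, immune and stromal cells had a median density of between 0.554 and 1.34 times background. *Pecam1*, *Plvap*, *Cdh5*, *Cd3e*, *Col1a1*, *Muc1* and *Cel* had no exon-exon read in any library, but the other markers of these lists had some. Summed exon-exon reads per library were 1 to 24 in *Trpm7R/R* and 12 to 39 in WT for acinar markers. They were 0 to 3 and 1 to 5 for duct, 0 to 1 and 0 for endothelial, 2 to 6 and 1 for immune, and 0 to 5 and 2 for stromal markers. Islet endocrine markers had 1193 to 3465 in *Trpm7R/R* and 5886 to 15321 in WT. In bulk islet RNA, fewer cells of a type and less RNA per cell cannot be told apart.

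Exon reads of the 10 genes were fewer in *Trpm7R/R* islets, most clearly for *Tpt1* and *Eef1a1*, and least so for *Eef2* and *Eif4a2*. Summed over the 10 genes they were 328, 305 and 367 in *Trpm7R/R* replicates 4, 6 and 8, against 1231, 858 and 574 in WT replicates 1, 2 and 3. Relative to mapped reads, the sums were 19.1, 17.3 and 18.1 in *Trpm7R/R* and 65.4, 47.1 and 31.1 in WT (exon reads per 1000000 mapped reads). The 3 *Trpm7R/R* libraries thus lay close together and below all WT libraries, which differed among themselves by more than all *Trpm7R/R* libraries did. In the test over 11674 genes (edgeR's quasi-likelihood test, with TMM scaling), the log2 fold change of *Trpm7R/R* over WT was negative for all 10 genes, with a median of -1.17, against 0.01 over all genes tested. None of the 10 passed an adjusted p of 0.05 or less as lower, while 3 genes or 0.0257% of all tested genes did. At an unadjusted p under 0.05, 7 of the 10 were lower, and 533 genes or 4.57% of all tested genes. Every *Trpm7R/R* library lay below every WT library for 6 of the 10, and for 799 genes or 6.84% of those tested. Most genes tested had few exon-exon reads, since only 181 genes had enough of them for a fit. Of these 181, 56.4% had a lower share of exon-exon reads outside the mitochondrial chromosome in every *Trpm7R/R* library. DESeq2's Wald test called 2 of the 10 lower, and 0.891% of all tested genes. The likelihood ratio test of edgeR called 4 of the 10 and 1.38% of all tested genes, and limma-voom 0 of the 10 and 0.0171%. With edgeR's main test, 1 of the 10 was called lower with upper quartile scaling and 1 without X and Y genes, against 0.257% and 0.265% of all genes tested. Without a filter on low counts 2 of the 10 were called lower, against 0.411% of all genes tested, and at a mean of at least 50 counts 2 of 3, against 1.10%.

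**Figure D1:**
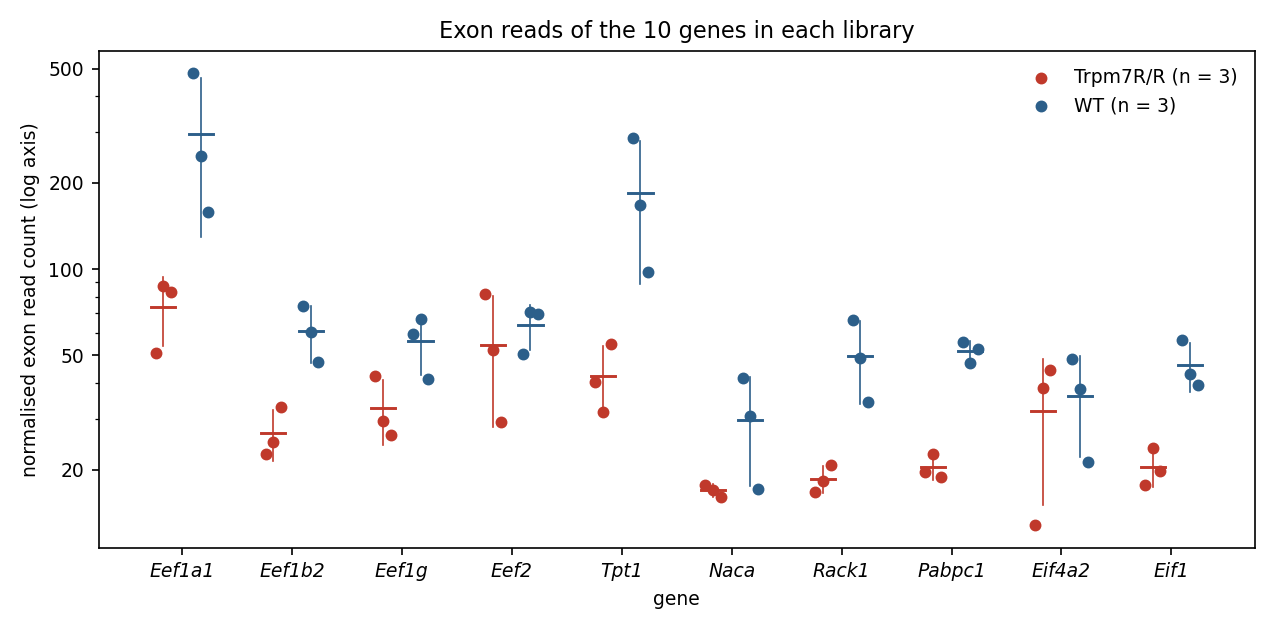
Normalised exon read counts (log axis) of the 10 genes in each library, with 3 *Trpm7R/R* libraries on the left and 3 WT libraries on the right of each gene. Points are libraries, horizontal lines means and vertical lines SD. *Tpt1* and *Eef1a1* show the widest gaps, with every *Trpm7R/R* point below 100 and WT points between 97.8 and 481, and *Eef2* and *Eif4a2* overlap.

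Among the elongation factors, *Eef1a1* (ENSMUSG00000037742, chromosome 9), the gene of eEF1A itself, had the most exon reads of the 10. Its normalised exon read count, scaled to the mean effective library size, was 51.2, 87.4 and 83.1 in *Trpm7R/R* replicates 4, 6 and 8, against 481, 248 and 158 in WT replicates 1, 2 and 3. The groups did not overlap, and WT replicate 1 was the highest by far. The log2 fold change was -2.0 ± 0.40 (SE, n = 3 each), with an adjusted p of 0.0594 by edgeR. *Eef1b2* (ENSMUSG00000025967, chromosome 1) encodes a subunit of the exchange factor eEF1B. It had 22.6, 25.0 and 33.1 normalised exon reads in *Trpm7R/R* libraries, against 74.4, 60.3 and 47.4 in WT libraries, again with no overlap. Its log2 fold change was -1.17 ± 0.33 (SE), with an unadjusted p of 0.00379 and an adjusted p of 0.246 by edgeR. *Eef1g* (ENSMUSG00000071644, chromosome 19), another eEF1B subunit, had 42.3, 29.5 and 26.4 normalised exon reads in *Trpm7R/R*, against 59.5, 67.0 and 41.4 in WT. *Trpm7R/R* replicate 4 reached the level of WT replicate 3, and the log2 fold change was -0.77 ± 0.34 (SE), with an adjusted p of 0.793 by edgeR.

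*Eef2* (ENSMUSG00000034994, chromosome 10), the gene of the translocation factor, stood apart from the other elongation factors. It had 81.7, 52.2 and 29.3 normalised exon reads in *Trpm7R/R* replicates 4, 6 and 8, against 50.6, 70.9 and 69.6 in WT replicates 1, 2 and 3. The groups overlapped fully, and the highest and the lowest of the 6 libraries were both *Trpm7R/R*. The log2 fold change was -0.23 ± 0.37 (SE), with an adjusted p of 1.00 by edgeR. Across the 6 libraries, its log2 counts followed the mean of the other 9 genes with a Pearson r of only 0.07, against 0.98 for *Eef1a1* and 0.97 for *Eef1b2*. These 6 points share their libraries and scaling, and the correlations are descriptions.

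Of the initiation genes, *Pabpc1* (ENSMUSG00000022283, chromosome 15) encodes the cytoplasmic poly(A)-binding protein, which ties the tail of an mRNA to its cap complex. It had 19.7, 22.7 and 18.9 normalised exon reads in *Trpm7R/R*, against 55.5, 46.9 and 52.4 in WT. Both groups were tight and well separated, and no other member varied so little among the WT libraries. Its log2 fold change was -1.34 ± 0.33 (SE), with an unadjusted p of 0.00123 and an adjusted p of 0.138 by edgeR. *Eif1* (ENSMUSG00000035530, chromosome 11), whose product guards the choice of start codon, had 17.7, 23.8 and 19.8 normalised exon reads in *Trpm7R/R*, against 56.5, 43.1 and 39.3 in WT. These did not overlap either, with a log2 fold change of -1.18 ± 0.35 (SE) and an adjusted p of 0.263 by edgeR. *Eif4a2* (ENSMUSG00000022884, chromosome 16) encodes an RNA helicase of the eIF4A family. It had 12.8, 38.6 and 44.4 normalised exon reads in *Trpm7R/R*, against 48.6, 38.3 and 21.2 in WT. The groups overlapped, only *Trpm7R/R* replicate 4 lay below all WT libraries, and the log2 fold change was -0.18 ± 0.46 (SE) with an adjusted p of 1.00 by edgeR.

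The remaining 3 genes are not named as elongation or initiation factors. *Tpt1* (ENSMUSG00000060126, chromosome 14), the gene of the translationally controlled tumor protein TCTP, had the largest difference of the 10. Its normalised exon read count was 40.3, 31.8 and 54.8 in *Trpm7R/R* and 287, 168 and 97.8 in WT. The groups did not overlap, and the log2 fold change was -2.11 ± 0.39 (SE), with an adjusted p of 0.0516 by edgeR. *Rack1* (ENSMUSG00000020372, chromosome 11) encodes a scaffold protein of the small ribosomal subunit. It had 16.7, 18.2 and 20.8 normalised exon reads in *Trpm7R/R*, against 66.5, 48.8 and 34.3 in WT, without overlap. Its log2 fold change was -1.42 ± 0.37 (SE), with an unadjusted p of 0.00187 and an adjusted p of 0.169 by edgeR. *Naca* (ENSMUSG00000061315, chromosome 10) encodes the α subunit of the nascent polypeptide-associated complex, which meets new chains at the ribosome exit. It had 17.7, 17.0 and 16.1 normalised exon reads in *Trpm7R/R*, against 41.7, 30.6 and 17.1 in WT, so that WT replicate 3 fell within the *Trpm7R/R* range. The log2 fold change was -0.81 ± 0.41 (SE), with an adjusted p of 0.968 by edgeR.

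The 2 smallest adjusted p-values lay close to the threshold, and the call changed with single libraries. Without *Trpm7R/R* replicate 4, adjusted p by edgeR was 0.0204 for *Tpt1* and 0.0265 for *Eef1a1*, and both were called lower, as were 1.19% of the genes tested there. Without WT replicate 3, where 0.242% of genes were called lower, it was 0.0294 for *Tpt1* and 0.0347 for *Eef1a1*, and without any of the other 4 libraries neither was called. A fit with a term for the libraries with almost no Y-linked reads sets *Trpm7R/R* replicate 4 alone against WT. In it *Tpt1* was at -2.19 and *Eef1a1* at -2.53, *Eif4a2* moved to -1.49 and *Eef2* to 0.36, and none of the 10 was called. How far sex takes part in these values was not tested beyond that fit.

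The densities showed how little stood above background. The 10 genes held, over their summed exon length, 56.4%, 48.2% and 52.5% of their exon reads at the density expected from background in *Trpm7R/R* replicates 4, 6 and 8. In WT replicates 1, 2 and 3 these shares were 14.6%, 19.9% and 29.6%. The genes' own introns averaged from 0.161 times this background (*Eef1a1*) to 1.34 times (*Eif4a2*) in *Trpm7R/R*, so the shares depend on the background chosen. *Eef1a1* had 6.62 ± 1.97 times the background density in *Trpm7R/R* and 27.0 ± 14.2 times in WT (SD, n = 3 each). *Tpt1* followed with 3.92 ± 0.941 times in *Trpm7R/R* and 17.6 ± 8.56 times in WT. *Eef1b2*, *Eef1g*, *Eef2* and *Eif1* had means of between 2.18 and 3.63 times in *Trpm7R/R*, against 4.42 to 5.49 times in WT. *Rack1*, at 0.704, 0.834 and 0.875 times, and *Pabpc1*, at 0.649, 0.816 and 0.623 times, were below background in every *Trpm7R/R* library and above it in every WT library, where *Rack1* had 2.86, 2.29 and 1.54 times and *Pabpc1* 1.87, 1.72 and 1.84 times. *Naca* stayed at 0.553 ± 0.0403 times in *Trpm7R/R* and reached 1.00 ± 0.391 times in WT. *Eif4a2* had 1.34 ± 0.711 times in *Trpm7R/R* and 1.55 ± 0.568 times in WT. The exon models of *Naca*, *Pabpc1*, *Eif4a2* and *Rack1* are long, with between 5119 and 6805 bases of annotated exon, against 2098 to 3324 bases in the other 6. By this measure 7 of the 10 had every *Trpm7R/R* library below every WT library, as 7.61% of all tested genes did, *Eef1g* being the one added to the 6 named by counts. The smallest p of a 2-sided exact permutation test with 3 against 3 is 0.1, so single genes could not pass 0.05 here, and each of the 7 reached 0.1.

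**Figure D2:**
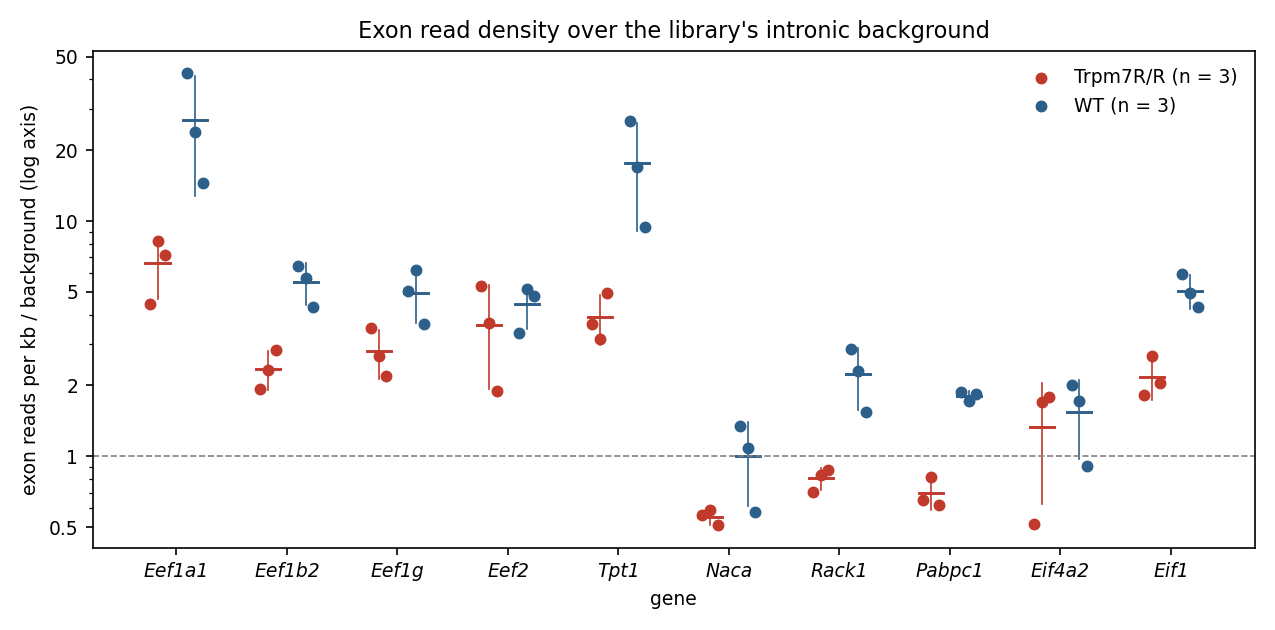
Exon reads per kilobase divided by the library's background density (log axis, dashed line at 1) for the 10 genes, with *Trpm7R/R* left of WT. Points are libraries, horizontal lines means and vertical lines SD. *Eef1a1* and *Tpt1* stand highest, and *Rack1* and *Pabpc1* cross the dashed line between the genotypes.

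Intron reads of the same genes did not separate the genotypes. The ranges of both genotypes overlapped for all 10 genes. *Eef1g*, for example, had 39, 18 and 24 intron reads in *Trpm7R/R* and 38, 20 and 34 in WT, and *Tpt1* had 8, 3 and 7 in *Trpm7R/R* and 4, 6 and 5 in WT. Relative to background, intron density of the genes with at least 1 intron read in each library averaged between 0.161 and 1.34 times in *Trpm7R/R* and between 0.175 and 1.11 times in WT. *Eif1* has only 114 bases of intron, with 1, 0 and 1 reads in *Trpm7R/R* and 0 in each WT library, where a count of 0 allows up to 3. Exon density over that of the gene's own introns was lower in every *Trpm7R/R* library for 3 of the other 9 genes, and for 832 or 7.74% of the 10749 tested genes with an intron read in every library. These were *Eef1b2*, with 2.71 ± 0.359 in *Trpm7R/R* and 7.29 ± 2.95 in WT, *Tpt1*, with 3.35 ± 0.969 in *Trpm7R/R* and 17.8 ± 12.4 in WT, and *Pabpc1*, with 2.34 ± 0.635 in *Trpm7R/R* and 5.96 ± 4.07 in WT (SD, n = 3 each, 2-sided exact permutation test, p = 0.1). The groups overlapped in the other 6, of which *Rack1* had only 5, 1 and 4 intron reads in *Trpm7R/R* and 1, 6 and 2 in WT.

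Exon-exon reads allow the 10 genes to be set against other spliced RNA of the same library. Counted per library, *Tpt1* had 15, 12 and 23 exon-exon reads in *Trpm7R/R*, against 132, 80 and 43 in WT. *Rack1* had 2, 4 and 9 in *Trpm7R/R* and 41, 35 and 13 in WT, *Eef1b2* 6, 6 and 7 in *Trpm7R/R* and 36, 27 and 21 in WT, and *Eef1a1* 5, 6 and 5 in *Trpm7R/R* and 31, 21 and 24 in WT. *Eef2* overlapped, with 36, 21 and 8 in *Trpm7R/R* and 9, 14 and 20 in WT, so that both the highest and the lowest count were *Trpm7R/R*. *Eif4a2* had no more than 1 exon-exon read in any library, which leaves its spliced mRNA unmeasured at this depth. Summed over the 10 genes there were 82, 75 and 71 exon-exon reads in *Trpm7R/R* and 309, 251 and 154 in WT.

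In the fit of exon-exon reads over the 181 genes with enough of them, 6 of the 10 genes could be tested and none was called in either direction by edgeR. At an unadjusted p under 0.05, 0 of the 6 were lower, against 11 genes or 6.08% of the 181, and 1 was higher, against 29 genes or 16.0%. That one was *Eef2*, with a log2 fold change of 2.08 ± 0.60 (SE), an unadjusted p of 0.00424 and an adjusted p of 0.120 by edgeR. Its normalised exon-exon counts were 65.9, 55.0 and 13.5 in *Trpm7R/R* replicates 4, 6 and 8 and 7.44, 6.41 and 18.4 in WT replicates 1, 2 and 3. Only *Trpm7R/R* replicates 4 and 6 lay above WT. Leaving out *Trpm7R/R* replicate 8 gave an adjusted p of 0.0282 and leaving out WT replicate 3 one of 8.93e-05, DESeq2's Wald test gave 0.0319, and over all alternatives it ran from 8.93e-05 to 0.622. In these 3 fits 1.21%, 12.0% and 11.0% of the genes tested were called higher. *Eef2* was also called higher with scaling to exon-exon reads without mitochondrial and dense genes, a choice made after seeing the data, as were 6.08% of the 181, and with library size scaling 4 of the 6 genes were called lower, as were 63.0% of the 181. The other 5 genes lay nearer to 0, at -1.05 ± 0.58 for *Rack1*, -0.91 ± 0.49 for *Tpt1*, -0.79 ± 0.52 for *Eef1a1*, -0.67 ± 0.47 for *Eef1b2* and 0.71 ± 0.44 for *Eef1g* (log2, SE), with adjusted p from 0.294 to 0.448 by edgeR. The median of the 6 was -0.73, against -0.11 over the 181 genes.

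**Figure D3:**
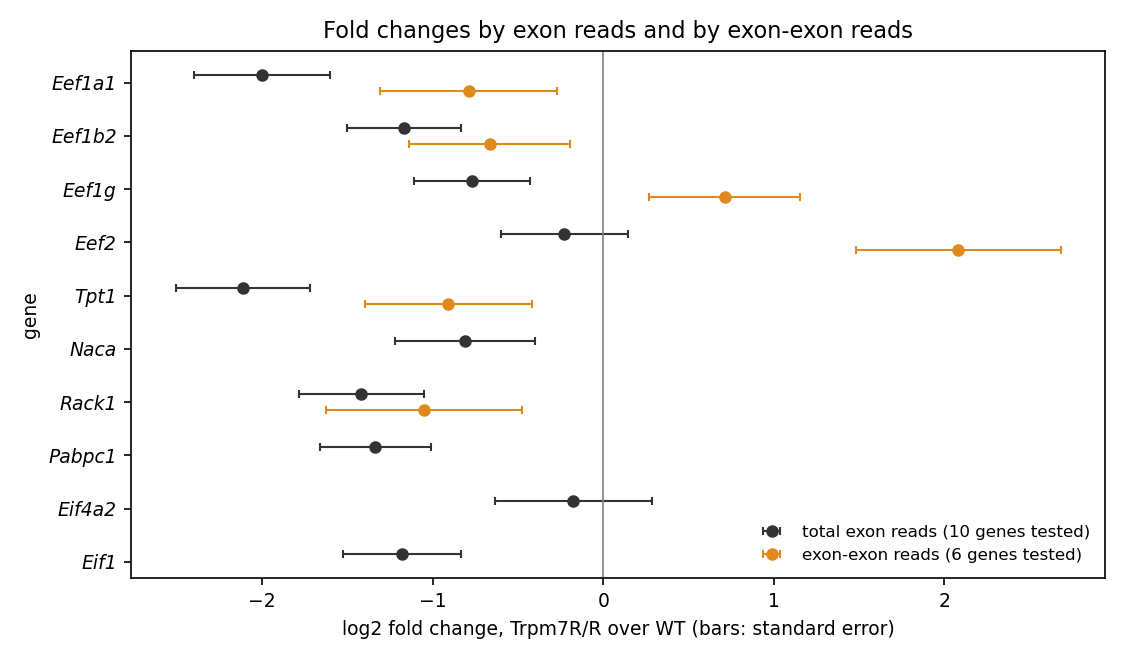
Log2 fold change of *Trpm7R/R* over WT (x axis, bars are SE) for each gene, from exon reads (black, 10 genes) and from exon-exon reads (orange, 6 genes). Each kind of reads has its own TMM scaling, and for all 6 the exon-exon value then lies to the right of the exon value. *Eef2* is at -0.23 by exon reads and at 2.08 by exon-exon reads. With library size scaling, not drawn, exon-exon values are 0.83 for *Eef2*, -0.69 for *Eef1g* and -2.03 for *Eef1b2*. They are then -2.10 for *Eef1a1*, -2.32 for *Tpt1* and -2.50 for *Rack1*.

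As a share of all exon-exon reads outside the mitochondrial chromosome, 5 of the 10 genes were lower in every *Trpm7R/R* library, namely *Eef1a1*, *Eef1b2*, *Tpt1*, *Rack1* and *Eif1* (2-sided exact permutation test, p = 0.1 for each). Of the 181 genes with enough exon-exon reads, 56.4% were also lower in every *Trpm7R/R* library by this measure, so it does not set the members apart from them. Most of that total belongs to the 11 dense predicted genes. With them taken out of the total, a choice made after seeing the data, only *Tpt1* was lower in every *Trpm7R/R* library, and 8.29% of the 181 genes were. *Tpt1* then made up 0.169%, 0.196% and 0.222% of the exon-exon reads in *Trpm7R/R* and 0.445%, 0.226% and 0.254% in WT, so that the highest *Trpm7R/R* value lay just under the lowest WT value. *Eef1a1* averaged 0.0675% ± 0.0266 in *Trpm7R/R* and 0.102% ± 0.0413 in WT, with overlap. *Eef2* averaged 0.275% ± 0.175 in *Trpm7R/R* and 0.0627% ± 0.0482 in WT, also with overlap. All 10 genes together took 0.926%, 1.22% and 0.684% in *Trpm7R/R* and 1.04%, 0.709% and 0.910% in WT, and these ranges overlapped. For comparison, the 83 cytosolic ribosomal protein genes took 14.1% ± 1.13 in *Trpm7R/R* and 14.5% ± 2.90 in WT (SD, n = 3 each).

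**Figure D4:**
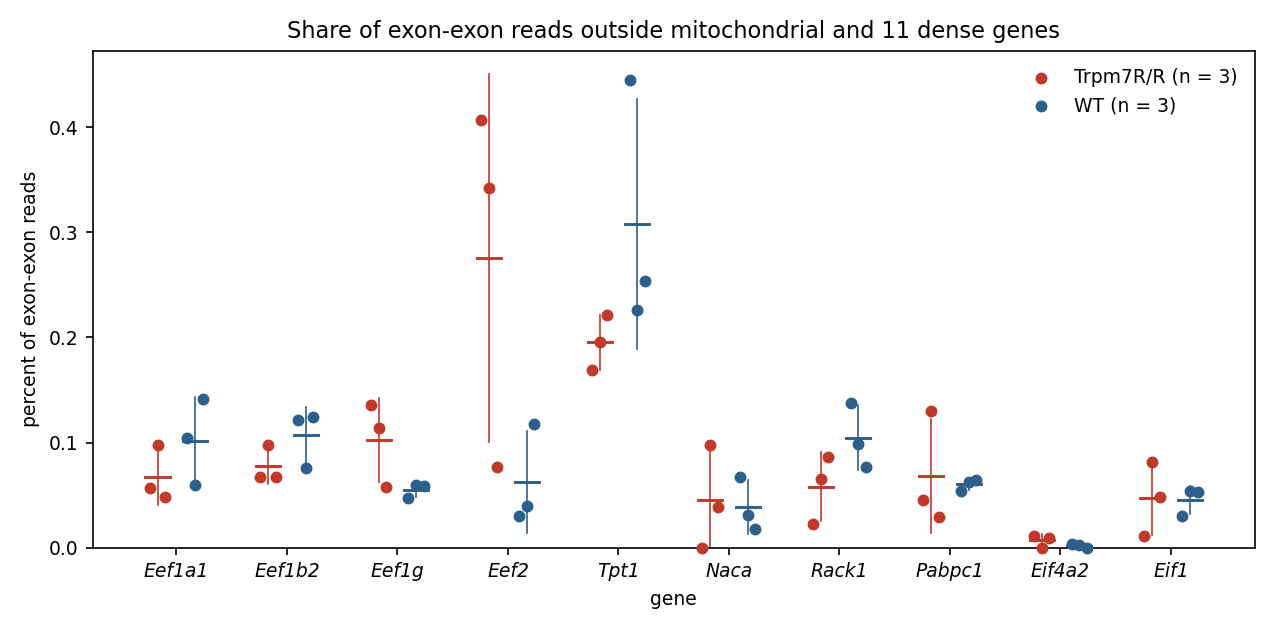
Each gene's percent of exon-exon reads outside the mitochondrial chromosome and the 11 dense predicted genes, by library, with *Trpm7R/R* left of WT. Points are libraries, horizontal lines means and vertical lines SD. *Tpt1* alone does not overlap, and *Eef2* is highest in 2 *Trpm7R/R* libraries, at 0.407% and 0.342%.

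The 10 genes differed in how many of their exon reads crossed a junction. Pooled over the libraries of a genotype, this share was 27.3% in *Trpm7R/R* (15 of 55 reads, exact 95% interval 16.1% to 41.0%) and 58.6% in WT (89 of 152, 50.3% to 66.5%) for *Rack1*. For *Tpt1* it was 39.4% (50 of 127, 30.8% to 48.4%) in *Trpm7R/R* and 45.5% (255 of 561, 41.3% to 49.7%) in WT. *Eef1a1* had far fewer junction reads for its depth, 7.37% (16 of 217, 4.27% to 11.7%) in *Trpm7R/R* and 8.44% (76 of 901, 6.70% to 10.4%) in WT. *Eef2* had 40.6% (65 of 160, 32.9% to 48.7%) in *Trpm7R/R* and 22.2% (43 of 194, 16.5% to 28.7%) in WT. Library by library, the genotypes overlapped for *Rack1*, with 11.8%, 25.0% and 40.9% in *Trpm7R/R* and 61.2%, 68.6% and 38.2% in WT. They overlapped for *Eef2* too, with 43.4%, 45.7% and 25.8% in *Trpm7R/R* and 17.6%, 18.9% and 29.0% in WT. Of the 6 genes tested by exon-exon reads, *Eef1b2* and *Tpt1* were lower in every *Trpm7R/R* library, as were 26.0% of the 181 genes, so this share does not set the members apart. *Eef1b2* had 26.1%, 27.3% and 20.0% in *Trpm7R/R* and 48.0%, 42.9% and 44.7% in WT. These intervals cover counting error only, since reads amplified by PCR are not independent molecules.

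Reads that map to several places were rare for most of the genes, although many processed pseudogenes of translation factors are known in mouse. In 7 of the 10 genes every exon read was uniquely mapped in every library. *Eef1a1* had 95.9% unique exon reads in *Trpm7R/R* (208 of 217, exact 95% interval 92.3% to 98.1%) and 96.0% in WT (865 of 901, 94.5% to 97.2%). *Eif1* had the lowest share, 88.3% in *Trpm7R/R* (53 of 60, 77.4% to 95.2%) and 80.1% in WT (113 of 141, 72.6% to 86.4%), and *Eif4a2* had 96.8% in *Trpm7R/R* and 98.2% in WT. With unique exon reads alone, *Eif1* was at -1.04 and *Eef1a1* at -2.01 on the log2 scale. Overlapping genes are a separate limit, since the sources used here do not state the strand setting of the counting. *Eef1b2* overlaps *Ndufs1*, *Rack1* overlaps *Trim41* and *Eif4a2* overlaps *Rfc4*, and 3, 3 and 5 snoRNA genes lie within these genes, with 1 each in *Eef2* and *Tpt1*. Reads of the overlapping genes cannot be told apart from those of the members there.

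Other genes of translation were compared by lists. The cytosolic ribosomal protein genes, the main TOP family, had 76 of 83 tested, all 76 negative, with 66 lower at an unadjusted p under 0.05, 0 called by edgeR after adjustment and a median log2 fold change of -1.44. The 2 with the smallest p were *Rplp1* at -2.01 and *Rpl41* at -2.0 (adjusted p = 0.0516 for both by edgeR). By exon-exon reads 62 of them were tested, with 42 negative and a median of -0.15. The WT libraries ranked differently in the 2 sets. WT replicate 1 was the highest WT library for 8 of the 10 genes described here, and WT replicate 2 for 59 of the 76 ribosomal protein genes.

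Of the further elongation factors 4 of 8 were tested, with a median of -0.07 and 0 lower at an unadjusted p under 0.05 by edgeR. *Eef1d*, another eEF1B subunit, was at -0.98 with an unadjusted p of 0.0585 by edgeR, and *Eif5a2*, an isoform of the factor that relieves stalled ribosomes, was at 0.11. *Eef2k*, whose kinase phosphorylates eEF2, had 4, 2 and 0 exon reads in *Trpm7R/R* and 1, 1 and 8 in WT and was too low to test. In the group of eIF1, eIF2 and eIF5, 8 of 13 were tested and the median was -0.93, 5 having an unadjusted p under 0.05 in the lower direction. *Eif2s2*, a subunit of the factor that brings the initiator tRNA, was at -1.43 (adjusted p = 0.108 by edgeR) and *Eif5b*, which joins the ribosomal subunits, at -1.35 (adjusted p = 0.303 by edgeR). Their exon-exon values were -0.04 and -0.03. Of the eIF3 subunits 9 of 13 were tested, with a median of -0.85 and 4 below 0 at an unadjusted p under 0.05, led by *Eif3f* at -1.62 and *Eif3a* at -0.86.

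In the eIF4 group, which binds the cap, 13 of 14 genes were tested with a median of -0.38, and 3 had an unadjusted p under 0.05, all lower. *Eif4a1*, the close relative of *Eif4a2*, had 11, 7 and 6 exon reads in *Trpm7R/R* and 54, 42 and 18 in WT. Its log2 fold change was -2.18 ± 0.49 (SE), with an adjusted p of 0.0985 by edgeR, against -0.18 for *Eif4a2*. Exon density of *Eif4a1* was 0.417 times background in *Trpm7R/R* and 1.97 times in WT, and that of *Eif4a2* 1.34 and 1.55 times. At such densities background reads limit the contrast between the 2 genes. The gene with the second smallest p was *Paip2*, an inhibitor of the poly(A)-binding protein, at -1.34 (adjusted p = 0.492 by edgeR). Of the mTORC1 and TOP regulators 9 of 12 were tested, with 2 lower at an unadjusted p under 0.05 and a median of -0.27. They were *Larp1*, the TOP-binding repressor, with 16, 16 and 12 exon reads in *Trpm7R/R* and 27, 60 and 33 in WT (log2 fold change -1.38, adjusted p = 0.287 by edgeR), and *Tsc2*, an inhibitor of mTORC1, at -1.11 (adjusted p = 0.803 by edgeR). Release and recycling factors (3 of 5 tested, median -0.23, led by *Hbs1l* at -0.52 and *Abce1* at -0.23) and mitochondrial translation factors (5 of 10 tested, median 0.04, led by *Tsfm* at -0.50 and *Gfm2* at 0.22) had 0 genes at an unadjusted p under 0.05 by edgeR. Among 8 other translation-associated genes 7 were tested, *Vim* at -0.97 and *Nap1l1* at -0.89 being the 2 with an unadjusted p under 0.05 by edgeR, and the median was -0.32. No gene of any of these lists was called by edgeR after adjustment over all 11674 genes. Over the 6 libraries, median exon density of the tested genes was 5.39 times background for ribosomal protein genes and 3.73 times for the 10 genes. It was 1.10 times in the eIF4 group, 1.06 in release and recycling, 1.02 in mitochondrial factors and 0.902 in mTORC1 and TOP regulators. The remaining lists lay between 1.42 and 2.53 times. Near background, a fold change close to 0 does not show unchanged mRNA.

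**Figure D5:**
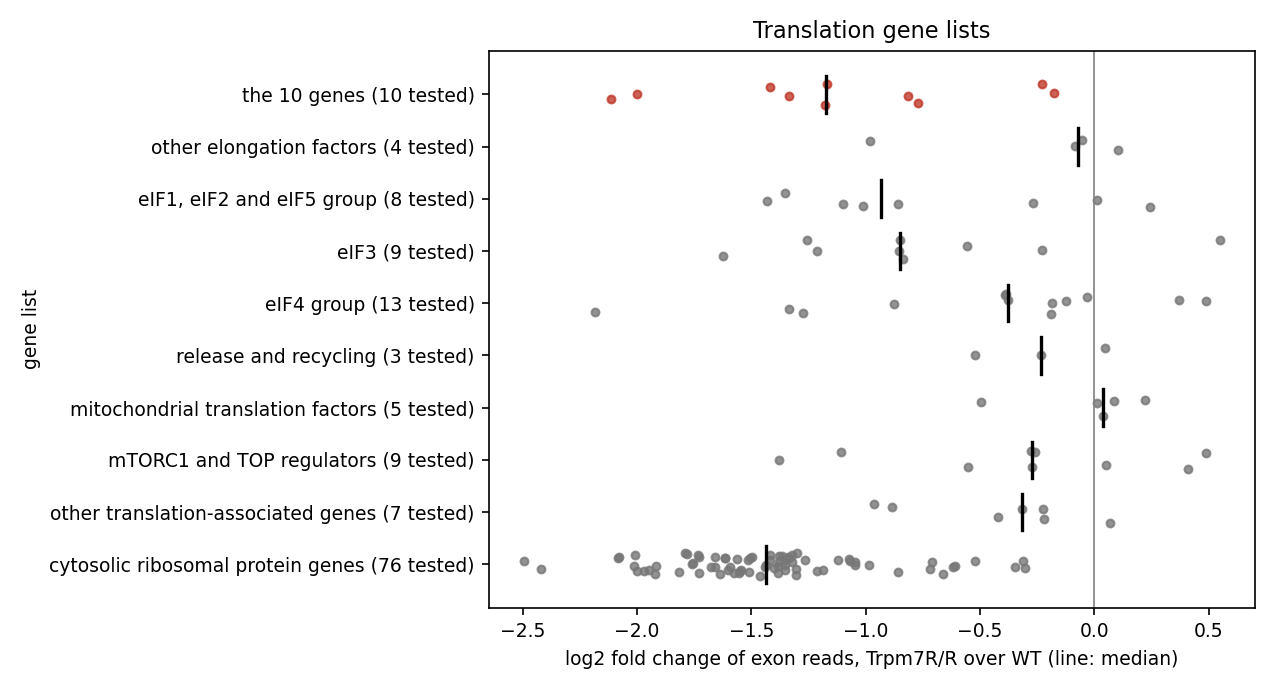
Log2 fold change of exon reads (x axis, *Trpm7R/R* over WT) for each tested gene of 10 lists, with the 10 genes described here in red at the top and a black line at each list's median. Medians run from -1.44 in the ribosomal protein genes and -1.17 in the 10 genes to 0.04 in the mitochondrial translation factors. The eIF4, release and recycling, mitochondrial, and mTORC1 and TOP lists had median exon densities of only 0.902 to 1.10 times background.

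The genes whose pattern over the 6 libraries was most like the mean of the 10 were sought among 2176 other genes with a mean of at least 50 exon reads. They were *Ubb* (Pearson r = 0.993), which encodes polyubiquitin, *Mafa* (r = 0.988), a β cell transcription factor, *Calr* (r = 0.987) and *P4hb* (r = 0.986), which encode proteins of the endoplasmic reticulum, and *Rplp0* (r = 0.982), a ribosomal protein gene. Their log2 fold changes lay between -2.35 and -2.01. Within the 10, *Rack1* followed the mean of the other 9 most closely, with r = 0.996, while *Eif4a2* had r = 0.36 and *Eef2* r = 0.07. The 6 libraries share depth and scaling in all of these values, which are given as a description.

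The direction of the exon-read result depends on what the libraries are scaled to. Scaled to all exon-exon reads outside the mitochondrial chromosome, all 10 genes stayed negative, with a median of -1.06 against 0.14 over all tested genes. All 76 tested ribosomal protein genes were themselves negative with TMM scaling, so scaling to them raises the values of other genes. Scaled to the exon reads of ribosomal protein genes, the median of all tested genes was 1.33 and that of the 10 genes 0.17, and scaled to exon-exon reads without the mitochondrial and dense genes, a choice made after seeing the data, they were 1.58 and 0.44. *Eef1a1* at -0.64 and -0.30 and *Tpt1* at -0.78 and -0.46 stayed negative in these 2 fits, while *Eef2* was at 1.08 and 1.34 and *Eif4a2* at 1.23 and 1.50. Relative to the median of all genes, the median of the 10 was -1.18 with TMM scaling and -1.16 with scaling to ribosomal protein genes. It was -1.14 with scaling to exon-exon reads without the mitochondrial and dense genes. These scalings move all genes together. Of all tested genes, 61.5% were called higher by edgeR with scaling to ribosomal protein genes, against 1 of the 10 members. With scaling to exon-exon reads without the mitochondrial and dense genes 79.0% were, against 2 of the 10.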

How the data were processed

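Islet RNA of 6 mice was sequenced after low-input library preparation. For each library the authors deposited gene-wise counts of exon, intron and junction-spanning (exon-exon) reads, both total and unique. The deposited RPKM values, exon reads scaled by the authors to exon length and mapped reads, were used only to recover the mapped reads of each library. The sources used here do not name the aligner or its settings. The submitters' processing notes name the build mm10, but the positions in the files do not match the GRCm38 annotation used here, so only chromosomes are given. The authors' tables of their own comparison hold fold changes and p-values and were not used.

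Total exon counts and exon-exon counts were fitted across all genes with edgeR 4.0.16 (R 4.3.3), with the quasi-likelihood test, TMM scaling, filterByExpr with a minimum of 10 counts and genotype as the only term. Benjamini-Hochberg adjustment ran over all genes tested, with calls at 0.05 or less. Normalised counts are scaled to the mean effective library size. By exon reads, the effective sizes of the libraries lay between 1369590 and 1646670. By exon-exon reads they were 72425, 50568 and 78365 in *Trpm7R/R* replicates 4, 6 and 8, and 160348, 289365 and 144178 in WT replicates 1, 2 and 3. Single values were compared with 2-sided exact permutation tests. The exact 95% intervals are Clopper-Pearson intervals. DESeq2 1.42.0, limma 3.58.1 and other scalings, filters and read types served as alternatives. The fits were also run on simulated counts that varied less between libraries than these data. Those runs do not show how the fits behave at the spread seen here.

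All 10 genes are named, and from each other list the 2 tested genes with the smallest p by exon reads. *Eef2k* was named after its values were seen. The genes and lists were chosen with earlier results of these data known. Each library comes from 1 mouse. Python 3.11.15, pandas 2.3.3, numpy 2.4.6, scipy 1.17.1 and matplotlib 3.10.9 were used.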

Additional observations from a re-analysis of the deposited data

How the results depend on the processing

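No paired analysis was possible because the labels give no litter or other pairing of mice between the 2 genotypes. With exon reads, 0 of the 10 genes were called lower by edgeR, against 1 with upper quartile scaling (0.257% of all tested genes) and 1 without X and Y genes (0.265%), *Tpt1* in both. *Tpt1* and *Eef1a1* were called without a filter on low counts (0.411%), at a mean of at least 50 counts (2 of 3 tested, 1.10%) and with DESeq2's Wald test (2 calls, 0.891%), and edgeR's likelihood ratio test called 4 (1.38%, also *Rack1* and *Pabpc1*). Leaving out each library gave 0 to 2 calls. With exon-exon reads, library size scaling called 4 of 6 lower (*Eef1a1*, *Eef1b2*, *Tpt1* and *Rack1*), and 63.0% of all 181 genes, whose median was -1.55, against 0 members otherwise, leaving out each library included, while *Eef1g* turned to -0.69, and to -0.059 without a filter. The share of exon-exon reads set 5 genes below every WT library, and 1 outside the dense predicted genes.

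Scaling to ribosomal protein genes turned the median to 0.17 and *Eef1b2* to 0.17, *Eef1g* to 0.60, *Eef2* to 1.08, *Naca* to 0.55, *Eif4a2* to 1.23 and *Eif1* to 0.16 on the log2 scale, with *Eif4a2* called higher (adjusted p = 0.0419 by edgeR), as were 61.5% of all tested genes. Scaling to exon-exon reads without mitochondrial and dense genes, chosen after seeing the data, turned the median to 0.44 and *Eef1b2* to 0.43, *Eef1g* to 0.87, *Eef2* to 1.34, *Naca* to 0.86, *Rack1* to 0.21, *Pabpc1* to 0.23, *Eif4a2* to 1.50 and *Eif1* to 0.44, with *Eif4a2* (adjusted p = 0.0147) and *Eef2* (0.0195) called higher by edgeR, as were 79.0% of all tested genes. These scalings shift all genes alike. *Eef2* turned to 0.36 with the term for Y-linked reads. Leaving out each library, *Eef2* ran from -0.65 to 0.13 and *Eif4a2* from -0.43 to 0.22 by exon reads, and the exon-exon median from -1.02 to 0.18, over different sets of tested genes. The other genes kept a negative value by exon reads in every alternative without these 2 scalings. Depth limits *Naca*, *Eif4a2* and *Eif1* most, with 0 to 20 exon-exon reads in each library.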
